A study of Gossypium hirsutum with 6 samples.

Results

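Leaves of heat-tolerant and heat-sensitive upland cotton (*Gossypium hirsutum*) were compared after 4 h at 45 °C, over the transcripts that reached 10 RPKM in at least 1 of these libraries. RPKM is a read count divided by transcript length and library size. That limit kept 14403 of the 421554 listed transcripts (3.42%), which fell into 8867 of 148415 components, the sets of transcripts that the identifiers mark as assembled together. The tolerant 4 h group is genotype Nan Dan Ba Di Da Hua and the sensitive 4 h group is genotype Earlistaple 7, tolerant and sensitive as the labels call them, both as seedlings about 20 days old with 3 leaves. Days of 14 h at 28 °C and nights of 10 h at 22 °C preceded the move to 45 °C, about 6 h into the light. Each genotype also had a library from leaves heated for 8 h and a control library kept at 28 °C. Where 3 values of a genotype stand together, they are its control, 4 h and 8 h libraries in that order. Each of the 6 groups was 1 library, the labels do not say how many plants went into it, and no p-value or spread between plants can be given. Hours of heat and time of day cannot be told apart. In bulk leaves, fewer cells of a type and less RNA per cell cannot be told apart either.

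Heat unfolds proteins, and plant leaves answer through heat shock transcription factors, which switch on genes for chaperones that refold or hold damaged proteins. At the same time transcripts for photosynthesis and growth are commonly lowered. Upland cotton is an allotetraploid that carries an A and a D subgenome, so many of its genes exist as close copies. The files do not pair transcripts with gene names, and 0 identifiers matched the 99454 genes of the RefSeq table for assembly Gossypium_hirsutum_v2.1. No transcript below is therefore given a function, and the leaf label was not checked against marker genes.

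Among the 14403 transcripts, 9319 reached 10 RPKM in both libraries, 2669 in the tolerant library alone and 2415 in the sensitive library alone. Relative to the tolerant control, read depth at 4 h was 0.803 in the tolerant and 1.07 in the sensitive library, judged from the spacing of low RPKM values. The total number of reads is unknown, so no counting interval is given. The 14403 transcripts held 47.1% of all RPKM in the tolerant library and 53.8% in the sensitive library. Repeated entries were common: 3888 transcripts (27.0%) had values proportional over the 6 libraries to those of another, and 3485 were tied to one in another component. A count of transcripts may therefore exceed the number of genes behind it.

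Most transcripts stood close in the heated genotypes. Of the 14403, 12225 lay within 2-fold on the log2(RPKM + 1) scale, which understates ratios of low transcripts, and the median log2 ratio of tolerant over sensitive was -0.02. The tolerant library was 2-fold or more above the sensitive one for 839 transcripts (5.83%), and 2-fold or more below it for 1339 (9.30%). Over components, each read from its most abundant transcript, 554 (6.25%) were higher and 838 (9.45%) lower. Past 4-fold stood 100 higher (0.694%) and 115 lower (0.798%) transcripts, and past 8-fold 17 of each (0.118%).

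The excess of lower over higher transcripts depended on where the limit stood and on the scaling. The number compared also changed with them, so the counts are not on the same base. With a limit of 1 RPKM it turned to 12606 higher and 5176 lower of 161973 transcripts. With RPKM summed over each component it turned to 1384 components higher and 990 lower, of 19611. Median-of-ratios scaling over all transcripts above 0 shifted the log2 ratio by -0.36 and gave 232 higher and 2540 lower of 12277. Upper-quartile scaling shifted it by -0.33 and gave 288 and 2575 of 13549. Of the 839 higher and 1339 lower transcripts as deposited, 356 and 1339 stayed past 2-fold under all 4 scalings tried, each of which shifted the ratio downwards for transcripts well above 1 RPKM. With the 10 RPKM limit applied again after scaling, median-of-ratios over transcripts at 10 RPKM or more gave 693 higher and 1303 lower of 12954. Just inside the 10 RPKM limit, 1640 transcripts with a higher value below 11 RPKM had a median log2 ratio of 0.07, and 1959 just outside it, between 9 and 10 RPKM, had 0.11.

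**Figure D1:**
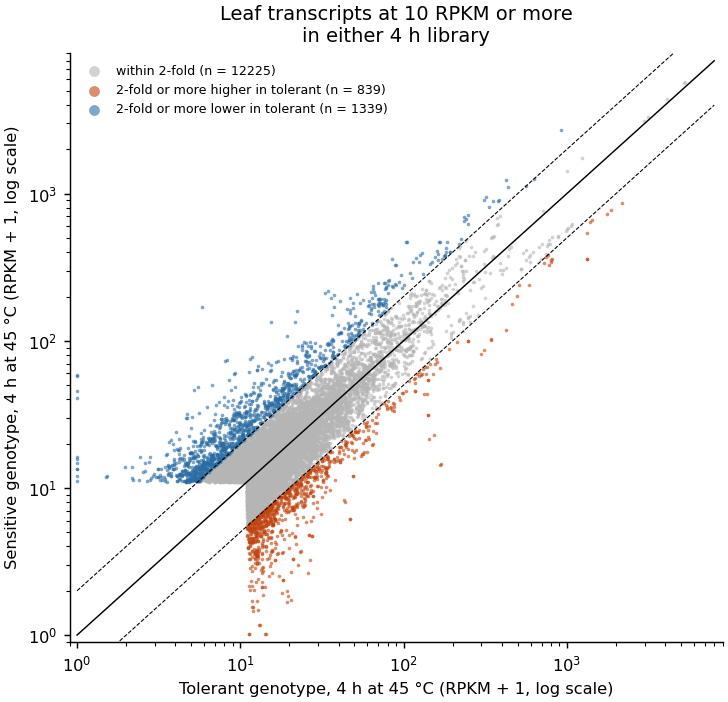
RPKM + 1 of each of the 14403 transcripts in the tolerant (horizontal) and sensitive (vertical) 4 h library, both on log scales; the solid line marks equal values and the dashed lines 2-fold. The cloud follows the line of equal values, with 839 transcripts beyond 2-fold on the tolerant side and 1339 on the sensitive side, and a few on the left edge at 0 RPKM in the tolerant library.

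The balance of higher and lower transcripts varied with abundance, in classes read from the values as deposited with repeated entries kept. Among 3343 transcripts with a mean of 20 to 50 RPKM over the 4 h libraries, 3.98% were higher by 2-fold or more in the tolerant genotype and 10.2% lower. Below 10 RPKM 13.1% were higher and 13.5% lower. These shares were 4.01% and 5.68% between 10 and 20 RPKM, and 5.16% and 14.9% between 50 and 100 RPKM. Between 100 and 500 RPKM, 20 of 440 were higher and 110 lower, with a median log2 ratio of -0.41. Among these 440 the lower transcripts thus outnumbered the higher ones. At the top the order was different, by a small margin in the 2-fold counts. Of 53 transcripts at 500 RPKM or more, from 32 components, 15 were higher by 2-fold or more in the tolerant genotype and 11 lower, and the median log2 ratio was 0.77. These 53 had median levels of 174, 795 and 680 RPKM in tolerant leaves, against 113, 617 and 455 RPKM in sensitive leaves.

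The 5 most abundant transcripts were the same in both heated genotypes, belonged to 2 components, and differed little between them. The first stood at 5259.14 RPKM in tolerant leaves and 5713.84 RPKM in sensitive leaves at 4 h, and the fifth at 2979.47 RPKM in tolerant and 3135.44 RPKM in sensitive leaves. Their log2 ratios lay between -0.12 and -0.07. All 5 had been below 50 RPKM in both controls, so the highest transcripts of heated leaves reached nearly equal levels in both genotypes at 4 h. At 8 h they were further apart but within 2-fold, with log2 ratios between 0.80 and 0.89. The first then stood at 3429.58 RPKM in tolerant leaves and 1974.84 RPKM in sensitive leaves. Proportional values tied transcripts across the 2 components, so the 5 are not separate observations.

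The 2 transcripts with the highest log2 ratios at a pseudocount of 1 RPKM were at or near 0 in every sensitive library. comp34632_c0_seq2, with the highest log2 ratio (3.83), measured 4.57, 13.34 and 11.87 RPKM in tolerant leaves, against 0, 0.01 and 0.03 RPKM in sensitive leaves. comp34605_c0_seq2 was next with a log2 ratio of 3.82 and gave 4.52, 13.26 and 11.99 RPKM in tolerant leaves, against 0, 0.01 and 0.03 RPKM in sensitive leaves. The values of these transcripts were proportional over the libraries, although they come from different components. Their difference was present without heat and at both heated times. The order of such low transcripts rests on the pseudocount: with 5 RPKM in place of 1, both had a log2 ratio of 1.87, below the 3.22 of the abundant transcript at 146.89 RPKM in the tolerant control, and with 0.1 RPKM they had 6.93 and 6.92.

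A second pair among the 10 highest ratios had a like course, with 5.37, 12.2 and 13.1 RPKM in tolerant leaves, against 0.04, 0.17 and 0 RPKM in sensitive leaves for the higher of the pair. Others differed in course. One measured 146.89, 168.93 and 1018.31 RPKM in tolerant leaves, against 83.38, 13.62 and 120.87 RPKM in sensitive leaves. In the sensitive genotype it was therefore well below its own control at 4 h, while the tolerant level was close to its control, and the plain RPKM ratio between the genotypes at 4 h was 12.4. Another had no RPKM in either control (listed at 0), with 18.19 and 301.12 RPKM in heated tolerant leaves (4 and 8 h), against 1 and 60.1 RPKM in heated sensitive leaves. A further one measured 0, 19.51 and 11.02 RPKM in tolerant leaves, against 0.06, 0.72 and 2.78 RPKM in sensitive leaves. These last 2 were thus off or nearly off in both unheated genotypes, and higher in the tolerant one once heated.

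Of the 10 highest ratios, taken with 1 transcript per component, all lay between 3.26 and 3.83 on the log2 scale, and merging proportional values left 8. All 10 were also higher by 2-fold or more in the tolerant genotype at 8 h, and 5 were so in the controls.

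In the other direction, several transcripts were at or near 0 in every tolerant library. comp76250_c0_seq1 had the lowest log2 ratio (-5.87), with 0, 0 and 0.03 RPKM in tolerant leaves, against 23.45, 57.54 and 38.81 RPKM in sensitive leaves. comp83556_c0_seq3 had a log2 ratio of -5.84, with 0, 0 and 0.04 RPKM in tolerant leaves, against 22.94, 56.34 and 38.02 RPKM in sensitive leaves. Both were high in every sensitive library and at or near 0 in every tolerant one. With a pseudocount of 0.1 RPKM their log2 ratios were -9.17 and -9.14. With 5 RPKM they were -3.64 and -3.62, and the transcript at 168.79 RPKM in sensitive 4 h leaves came lower at -4.14. The whole component of the first, with 4 transcripts, summed to 0, 0 and 0.03 RPKM in tolerant leaves, against 167.26, 127.51 and 152.77 RPKM in sensitive leaves.

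Of the 14403, 6 transcripts of 4 components were listed at 0 in the 3 tolerant libraries, and 0 in the 3 sensitive ones. Each had to reach 10 RPKM at 4 h, so these 6 entered through the sensitive library. An exact 0 also depends on read depth, which was lower in each tolerant library than in the matching sensitive one. Over all 421554 transcripts, 38956 were at 0 in the tolerant and 44713 in the sensitive 4 h library. The count of 6 against 0 is therefore not a finding. The highest of the 6 in the controls measured 100.6, 44.45 and 69.23 RPKM in sensitive leaves. Another, from a different component, ran nearly in proportion to it, with 89.98, 39.75 and 61.87 RPKM in sensitive leaves. The 4 components may therefore stand for fewer genes. Summed over all transcripts of a component, the levels of these 4 components were at most 0.68 RPKM in any tolerant library and at least 13.34 RPKM in any sensitive one. Under a looser limit, 14 transcripts of 9 components were below 1 RPKM in the tolerant 4 h library, and 17 of 12 components in the sensitive 4 h library.

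The next lowest ratio outside these components (-4.86) was of a different kind. This transcript measured 21.29, 4.84 and 11.69 RPKM in tolerant leaves, against 16.82, 168.79 and 2.87 RPKM in sensitive leaves. It was near in the controls, 34.9-fold higher in the sensitive genotype at 4 h (plain ratio), and higher in the tolerant genotype at 8 h. Of the 10 lowest ratios, with 1 transcript per component, 6 were listed at 0 in the tolerant 4 h library. In the controls, 6 of the 10 were lower by 2-fold or more in the tolerant genotype and 3 higher.

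**Figure D2:**
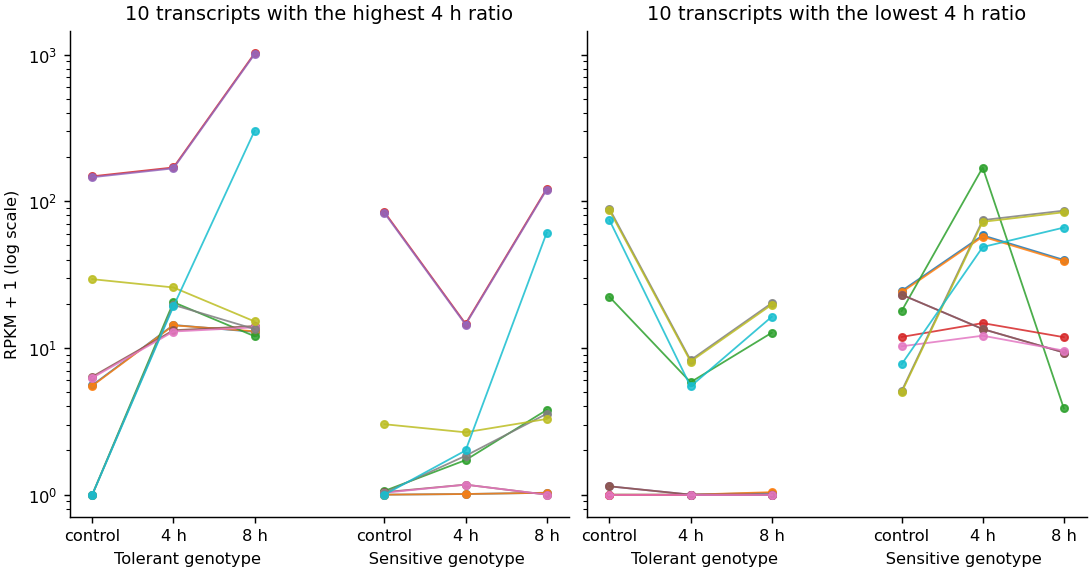
RPKM + 1 (log scale) in the 3 tolerant and the 3 sensitive libraries of the 10 transcripts with the highest (left panel) and the lowest (right panel) log2 ratio at 4 h, 1 line per transcript and 1 transcript per component. On the left all lines are higher in the tolerant libraries at 4 and 8 h; on the right 6 lines run at or near 0 RPKM in all tolerant libraries, and 3 are high in the tolerant control and low after heat.

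The control and 8 h libraries give the genotype difference again, with no library in common with the 4 h comparison. In the controls, 1712 of the 14403 transcripts (11.9%) were higher by 2-fold or more in the tolerant genotype and 180 (1.25%) lower. At 8 h, 1307 (9.07%) were higher and 4573 (31.8%) lower. The median log2 ratio of the 14403 at 8 h was -0.42, which median-of-ratios scaling over all transcripts above 0 turned to 0.10. Across the transcripts, the 4 h log2 ratio correlated with that of the controls at Pearson's r = -0.15 (Spearman's rho = -0.08) and with that at 8 h at r = 0.52 (rho = 0.49). The transcripts share libraries and repeated entries and are not independent. The sign at 4 h matched that of the controls for 49.0% and that at 8 h for 65.7% of the 14403.

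Transcripts apart at 4 h were mostly on the same side at 8 h, where 35.6% of all 14403 were above a log2 ratio of 0 and 64.3% below it. Of the 839 that were higher in the tolerant genotype at 4 h, 376 (44.8%) were so by 2-fold or more at 8 h and 43 lower, and 652 (77.7%) were above a log2 ratio of 0 there. Of the 1339 that were lower at 4 h, 872 (65.1%) were at least 2-fold lower at 8 h and 18 higher, and 1171 (87.5%) were below 0. Over the controls the picture was otherwise. Of the 839, 128 (15.3%) differed there by 2-fold or more on the same side and 36 (4.29%) on the opposite side. Of the 1339, 54 (4.03%) did so on the same side and 414 (30.9%) on the opposite side. The control shares of all 14403 were 11.9% higher and 1.25% lower in the tolerant genotype. Both lower shares, 4.29% and 4.03%, were thus above that of all transcripts.

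**Figure D3:**
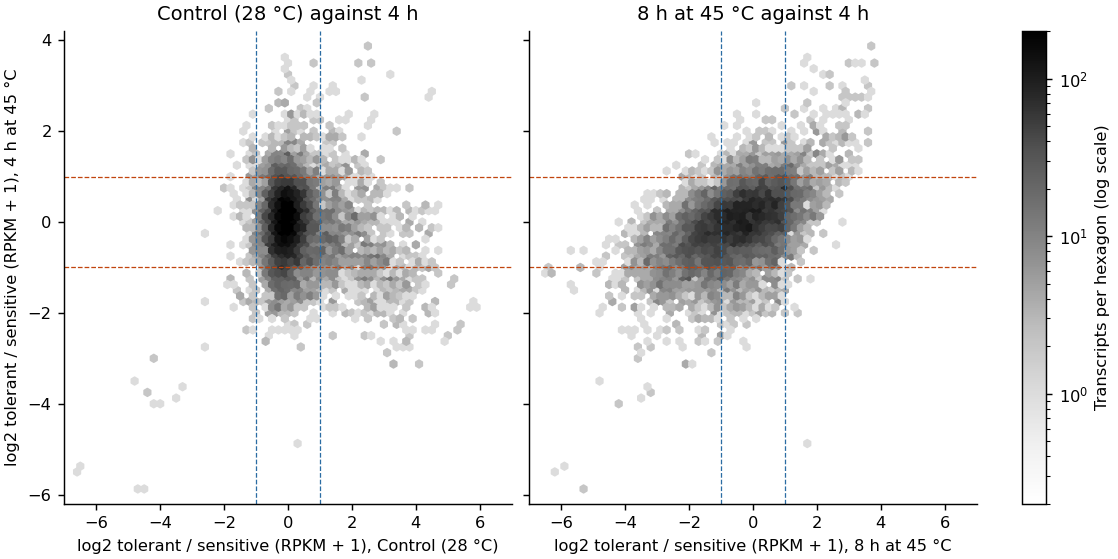
The log2 ratio of tolerant over sensitive (RPKM + 1) at 4 h (vertical) against that of the controls (left panel) and that at 8 h (right panel), over the 14403 transcripts; shading counts transcripts per hexagon on a log scale and dashed lines mark 2-fold. The right cloud slopes upwards (r = 0.52); on the left a tail of transcripts higher in the tolerant control lies below 0 at 4 h.

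Split by all 3 comparisons, 94 transcripts of 53 components were higher by 2-fold or more in the tolerant genotype in control, 4 h and 8 h leaves. Their median levels were 8.98, 23.1 and 91.8 RPKM in tolerant leaves, against 2.06, 7.75 and 15.5 RPKM in sensitive leaves. Lower in all 3 comparisons were 45 transcripts of 32 components, with medians of 2.58, 3.70 and 0.620 RPKM in tolerant leaves, against 19.4, 14.8 and 17.2 RPKM in sensitive leaves. Both sets were chosen to differ in all 3 comparisons, so that the genotypes were apart without heat is not a finding.

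More transcripts were apart at 4 and 8 h but within 2-fold in the controls. Most of all 14403 were within 2-fold in the controls, with 11.9% higher and 1.25% lower in the tolerant genotype. The larger counts are therefore not a finding. Higher at 4 and 8 h but within 2-fold in the controls were 274 transcripts of 199 components, with medians of 2.74, 20.1 and 47.7 RPKM in tolerant leaves, against 2.41, 6.67 and 13.4 RPKM in sensitive leaves. Lower at 4 and 8 h but within 2-fold in the controls were 572 transcripts of 408 components, with medians of 54.5, 10.5 and 3.49 RPKM in tolerant leaves, against 65.9, 30.5 and 21.2 RPKM in sensitive leaves. The first set was low in unheated leaves and higher in heated ones, and the second the reverse, in both genotypes by their medians. The 4 h and 8 h values chose both sets, so the side on which the genotypes differ there is not a finding.

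Apart at 4 h but within 2-fold in both other comparisons were 363 transcripts that were higher and 286 that were lower in the tolerant genotype. With the closer limit of 1.5-fold in the control and at 8 h, 178 and 132 remained. The leading one measured 1.11, 14.65 and 1.28 RPKM in tolerant leaves, against 1.54, 1.63 and 1.17 RPKM in sensitive leaves. The leading one in the other direction measured 3.69, 5.96 and 3.38 RPKM in tolerant leaves, against 3.70, 30.72 and 4.56 RPKM in sensitive leaves. Each was thus high in a single library out of 6, and no second library of that group exists to compare it with.

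A set of transcripts lay on opposite sides in control and 4 h leaves. Of the 316 transcripts (2.19%) 8-fold or more above the sensitive level in unheated tolerant leaves, 180 (57.0%) were 2-fold or more below it at 4 h and 5 above it, against 9.30% and 5.83% of all 14403. Their median levels were 43.9, 15.5 and 23.1 RPKM in tolerant leaves, against 2.16, 36.6 and 43.6 RPKM in sensitive leaves. The tolerant medians were thus lower after heat than without it, and the sensitive medians higher. The control values chose this set, and each transcript also had to reach 10 RPKM at 4 h. These changes from control to heat may therefore partly follow from the choice. Their median log2 ratio at 4 h was -1.12, and -1.17 to -1.37 under the 4 scalings. The leading one measured 87.93, 7.26 and 19.21 RPKM in tolerant leaves, against 4.07, 73.35 and 85.31 RPKM in sensitive leaves. It was 21.6-fold higher in the tolerant control and 10.1-fold higher in the sensitive genotype at 4 h.

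With 2-fold limits on both sides, 414 transcripts of 267 components were higher in the tolerant control and lower at 4 h, of which 255 were lower at 8 h as well. The 414 were 24.2% of the 1712 transcripts higher by 2-fold or more in the tolerant control. The opposite crossing held 36 transcripts of 26 components, 20% of the 180 that were lower there. Of all 14403, 9.30% were lower and 5.83% higher at 4 h. The crossing shares were thus near each other, so the larger count of 414 is not by itself a finding. Under median-of-ratios scaling over all transcripts above 0 the 2 crossing counts were 750 and 10. The leading one of the opposite crossing measured 0.71, 14.3 and 3.59 RPKM in tolerant leaves, against 2.49, 1.97 and 3.13 RPKM in sensitive leaves.

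**Figure D4:**
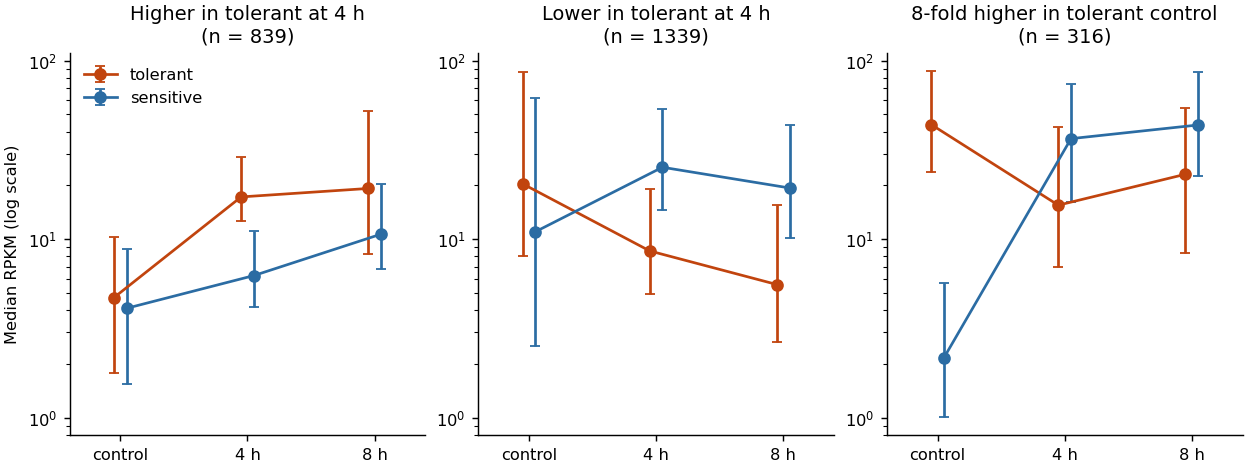
Median RPKM (log scale; bars from the lower to the upper quartile over transcripts, not over replicates) in control, 4 h and 8 h leaves of the tolerant and the sensitive genotype, for 3 sets of transcripts. The medians of the 839 and 1339 transcripts were chosen to differ at 4 h; the 316 transcripts chosen in the controls, at 43.9 RPKM in tolerant and 2.16 RPKM in sensitive leaves, stand at 15.5 RPKM in tolerant and 36.6 RPKM in sensitive leaves at 4 h.

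Groups drawn from the control and 8 h libraries alone show what the 4 h difference looked like for transcripts that were higher or lower in heated leaves of both genotypes. Of 564 transcripts at least 8-fold higher at 8 h than in control in both genotypes, 191 (33.9%) were higher by 2-fold or more in the tolerant genotype at 4 h and 7 lower, against 5.83% and 9.30% of the 14403. Their median levels were 0.76, 13.6 and 55.9 RPKM in tolerant leaves, against 0.345, 7.68 and 21.2 RPKM in sensitive leaves. The median log2 ratio was 0.20 in the controls and 0.68 at 4 h, where 432 of 564 (76.6%) were above 0. Over the 344 components, 107 were higher and 7 lower. Not all of this group belong to the transcripts compared at 4 h: 353 of the 564 reached 10 RPKM there. Of these, 150 (42.5%) were higher and 7 lower, with a median of 0.78. That limit used the same 4 h values, so the larger share and median over the 353 may partly follow from it.

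Transcripts lower in heated leaves lay on the other side. Of 622 at least 8-fold lower at 8 h than in control in both genotypes, 220 (35.4%) were lower by 2-fold or more in the tolerant genotype at 4 h and 21 higher. Of the 14403, 9.30% were lower and 5.83% higher. Their medians were 51.2, 2.66 and 1.12 RPKM in tolerant leaves, against 65.9, 4.64 and 3.46 RPKM in sensitive leaves, and 217 of the 622 reached 10 RPKM at 4 h. The median log2 ratio was -0.34 in the controls, where 445 of 622 (71.5%) were below 0, and -0.67 at 4 h. The group thus leaned to the same side without heat. Over those 217 alone, 142 (65.4%) were lower and 7 higher, with a median of -1.19. Their median levels at 4 h were 10.2 RPKM in tolerant and 22.9 RPKM in sensitive leaves. The limit used these same 4 h values, so the larger share and median over the 217 may partly follow from it. Under median-of-ratios scaling over all transcripts above 0 the group held 799 transcripts, of which 364 were lower and 8 higher.

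Of 563 transcripts at 100 RPKM or more in both controls, 257 (45.6%) were lower by 2-fold or more in the tolerant genotype at 4 h and 0 were higher. The shares of the 14403 were 9.30% and 5.83%. The genotypes were near in control for this group, with medians of 203 RPKM in tolerant leaves and 206 RPKM in sensitive leaves, and stood at 40.2 RPKM in tolerant and 67.6 RPKM in sensitive leaves at 4 h. The median log2 ratio was -0.07 in the controls and -0.92 at 4 h. The group shares 212 transcripts with the heat-lower group above.

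The 1786 transcripts within 1.5-fold of control at 8 h in both genotypes were mostly near each other at 4 h as well. In the tolerant genotype 45 (2.52%) were higher by 2-fold or more and 21 (1.18%) lower, against 5.83% and 9.30% of the 14403. Their median log2 ratio at 4 h was 0.16, which turned to -0.23 under median-of-ratios scaling over all transcripts above 0 and to -0.16 under upper-quartile scaling. The heat-higher, heat-lower and abundant groups kept the sign of their median under all 4 scalings. Under the scaling with the largest shift, the heat-higher group had a median of 0.38, with 91 of 437 transcripts higher and 25 lower.

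**Figure D5:**
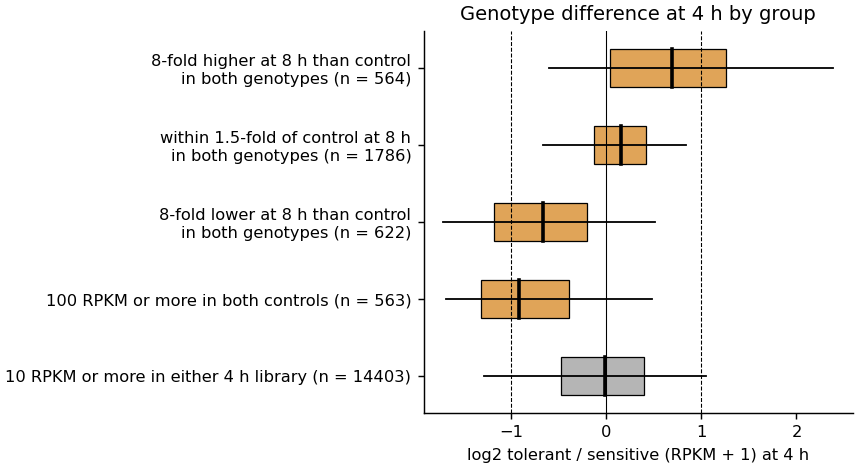
The log2 ratio of tolerant over sensitive (RPKM + 1) at 4 h in groups chosen from the control and 8 h libraries, and in the 14403 transcripts compared; boxes run from the lower to the upper quartile with the median as a thick line, whiskers from the 5th to the 95th percentile, and dashed lines mark 2-fold. The group higher at 8 h than in control has a median of 0.68, the group lower at 8 h -0.67 and the group abundant in both controls -0.92.

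Transcripts of a component had similar ratios. In 2698 components with 2 or more of the 14403 transcripts, the log2 ratio at 4 h spanned a median of 0.127 between the highest and the lowest transcript. It spanned 4-fold or more in 12 of them. In 0 of the 2698 was a transcript at least 2-fold higher while another was at least 2-fold lower. Transcripts of a component can share sequence and reads, so their similar ratios may follow from that and are not a finding. The most abundant transcript of the component was a different one in the tolerant than in the sensitive library in 496 of the 2698 (18.4%). How near in level such transcripts were was not examined.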

How the data were processed

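RPKM values per transcript with 2 decimals were used as the authors deposited them, 1 column per library, with the unit per the file headers. How reads were assembled, aligned and counted, and whether by strand, is not given in the sources used here. Per the labels' protocols, total RNA was extracted by a modified CTAB method and libraries followed standard Illumina steps. Libraries were grouped by the titles, with 1 library in each of 6 groups.

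The tolerant and sensitive 4 h libraries were joined on transcript identifier, and the log2 ratio of (RPKM + 1) was taken for transcripts at 10 RPKM or more in either. A component is the identifier without its sequence number and was read from its transcript with the highest mean at 4 h. With 1 library per group only sizes are given; an additive model over the 6 libraries, which would test an averaged genotype effect, was not run. Proportional transcripts lay within 0.02 (Euclidean distance of centred natural logarithms of RPKM + 0.1 over the 6 libraries). Relative depth was taken from the steps between low values, and the 15 pairs of libraries agreed to within 0.0075 on the log2 scale. Groups by heat response used transcripts at 10 RPKM or more in any control or 8 h library. Transcripts described singly were the 10 highest and 10 lowest ratios (1 per component), the 5 most abundant of each 4 h library and the leader of each pattern, with identifiers for 2 per direction. The transcripts, groups and patterns were chosen with earlier results of these data known. Alternatives were other pseudocounts, limits, scalings and units. Calls and relative depth were tested on simulated data. Python 3.11.15, pandas 2.3.3, NumPy 2.4.6 and SciPy 1.17.1 were used.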

Additional observations from a re-analysis of the deposited data

Results flagged for a closer look

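The sign of the genotype difference was opposite in the control and the 4 h leaves for the following results, in each case at least 2-fold on both sides. Whether the differences differ was not tested, because each group holds 1 library. Higher in the tolerant control and lower at 4 h were 414 transcripts, with a median log2 ratio of 2.78 in the controls. They were 24.2% of the 1712 that were higher by 2-fold or more in the tolerant control. Lower in the tolerant control and higher at 4 h were 36 transcripts, with a median log2 ratio of -1.16 in the controls. These made up 20% of the 180 that were lower by 2-fold or more in the tolerant control. Among the transcripts described singly, 3 of the 10 lowest ratios had log2 ratios of -3.17, -3.16 and -3.16 at 4 h, beside 4.13, 4.12 and 3.27 in the controls and -2.09, -2.09 and -2.02 at 8 h. The first 2 of them had proportional values over the 6 libraries. The leading transcript of the opposite crossing had 2.37 at 4 h, -1.03 in the controls and 0.15 at 8 h.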

How the results depend on the processing

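No paired analysis was possible because the 4 h difference rests on 1 pair of libraries, and no library could be left out; an averaged genotype effect over the control, 4 h and 8 h pairs was not run. As reported, 839 transcripts were at least 2-fold higher in the tolerant genotype, 1339 lower, and 17 at least 8-fold apart in each direction; the sign at 4 h matched that of the controls for 49.0% and that at 8 h for 65.7%. A pseudocount of 0.1 gave 43 and 28 at 8-fold; a pseudocount of 5 gave 407 and 805 at 2-fold, 2 and 5 at 8-fold. A limit of 1 RPKM (161973 transcripts) and no limit (421554) each gave 12606 and 5176. The median log2 ratio was 0.20 and 0.094, the matching signs 42.7% and 36.6% (controls) and 54.3% and 46.5% (8 h). A limit of 20 RPKM gave 354 and 791 at 2-fold, 4 and 10 at 8-fold, a median of -0.13, and 50.2% and 70.3%. A limit on the mean of 6 libraries gave 7 and 11 at 8-fold, 51.5% and 68.0%. Median-of-ratios scaling over transcripts above 0 in all 6 gave 232 and 2540, 7 and 27, a median of -0.46, 38.8% and 60.7%, and 0.38 for the group higher at 8 h than in control; over transcripts at 10 RPKM or more in all 6 it gave 66.6% at 8 h. Upper-quartile scaling gave 288 and 2575, 8 and 28, -0.41, 43.5% and 67.2%, and equal sums 67.5% at 8 h. With 1 transcript per component 554 and 838 were called; with RPKM summed per component 1384 were higher, the median was 0.17, the signs matched for 43.5% and 56.7%, and the group abundant in both controls had -0.44. The medians of the heat-higher, heat-lower and abundant groups kept their sign under every alternative run. The sizes of the first 2 groups depended on the pseudocount. The heat-higher group held 564 transcripts as reported, 1365 with 0.1 RPKM and 122 with 5 RPKM. The heat-lower group held 622, 893 and 264. Added after the data were examined, the scalings turned the median of the transcripts within 1.5-fold of control at 8 h to -0.23 (median-of-ratios above 0) and -0.16 (upper quartile), and the median at 8 h of the transcripts compared to 0.10 (median-of-ratios above 0). The number changing sides after the tolerant control was 400, 750, 741 and 479 under median-of-ratios at 10 RPKM, above 0, upper quartile and equal sums; for the opposite crossing it was 31, 10, 11 and 29. The cause of these changes was not tested. Read counts are unknown, so the precision of low values is too.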
